A study of Mus musculus with 4 samples.

Results

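The forkhead (Fox) family was followed in mouse embryonic stem cells, wild type and labelled as Suz12 knockout. Its members were chosen by name: every probe set whose only gene symbol in the platform annotation is Fox, a letter and a number. This gave 82 probe sets for 37 genes, of 45101 probe sets in the table and 18193 genes with a probe set of their own. The platform annotation gave 11 of the 37 genes at least 3 probe sets each, with 8 for Foxp1, and probe sets of 1 gene are not independent of each other.

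The study set 2 arrays of wild-type cells (WT) against 2 arrays of cells labelled Suz12KO, on Affymetrix expression arrays. Per the labels, RNA was extracted separately from 3 clones of each genotype and combined in equal amounts, and no strain, allele or treatment is named. The labels do not say whether both arrays of 1 genotype carry different RNA, so every p-value below measures spread between arrays, which may be technical. The array for WT replicate 1 is called WT 1 below, and the others follow the same pattern.

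Forkhead proteins are transcription factors that bind DNA through a winged-helix domain. Some, such as Foxa proteins, open compacted chromatin for other factors, and FoxO proteins are held in the cytoplasm when insulin and Akt signalling is active. In embryonic stem cells Foxd3 supports the undifferentiated state, Foxh1 carries Nodal signals with Smad proteins, and a splice form of Foxp1 made in these cells favours pluripotency genes. Many other members direct the formation of germ layers and organs and are known targets of Polycomb repressive complex 2 (PRC2), of which Suz12 is a core subunit. PRC2 methylates lysine 27 of histone H3, often at promoters rich in CpG dinucleotides.

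Suz12 itself had a signal of 1097 and 1094 on the WT arrays and 217 and 369 on the Suz12KO arrays, lower on both Suz12KO arrays. Signal was compared on the scale log2(signal + 16), and this Suz12 log2 fold change was -1.89 (SE 0.27, limma with Benjamini-Hochberg adjusted p = 0.00702). As a background, 27 probe sets for the bacterial genes Dap, Lys, Phe, Thr and Trp were used, which read low on every array and are called unused spikes below. The highest of them read 141 and 191 on the WT arrays and 195 and 174 on the Suz12KO arrays, so the Suz12 signal stayed above them on both Suz12KO arrays. As no allele is named, it is unknown whether this probe set covers the altered stretch of Suz12. Marker lists were scored by each gene's probe set of highest mean log2 signal. A marker rose or fell if its limma adjusted p was under 0.05. Scored this way, 1.99% of all genes were called higher and 2.59% lower. All 10 embryonic stem cell genes checked read above the spikes on all 4 arrays, and 9 of them rose in Suz12KO. Nanog, Klf4 and Fgf4 rose by 2.04, 2.03 and 1.81 on the log2 scale. The summed signal of the 10 was 66305 to 66771 on the WT arrays and 121673 to 124629 on the Suz12KO arrays. Of 13 fibroblast markers 5 fell (Acta2, Col1a1, Col1a2, Col3a1 and Thbs1), 0 rose and 8 did not pass. Summed over the list, the signal was 47012 (WT 1), 47683 (WT 2), 11037 (Suz12KO 1) and 11029 (Suz12KO 2), and most of it came from Acta2, which read 33742 and 33855 on the WT arrays and 6821 and 7422 on the Suz12KO arrays, and Thbs1, which fell by 2.34 on the log2 scale. Postn, Lum and Dcn, defining markers of fibroblasts, were at or under the spikes on every array, while Col1a1, another, read 2859 on WT 1, 2599 on WT 2, 435 on Suz12KO 1 and 448 on Suz12KO 2. The part of these markers in the forkhead results was not tested, and in bulk RNA fewer cells of a type and less RNA per cell cannot be told apart.

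Within the family 3 of 8 Foxp1 probe sets and 1 of 4 Foxm1 probe sets fell in Suz12KO, and 1 of 3 Foxo3 probe sets rose. A change was called at an adjusted p under 0.05 over all 45037 probe sets other than controls. By this rule 1 of 82 forkhead probe sets was higher in Suz12KO, against 1.25% of all probe sets, and 4 were lower, against 1.79%. Of the 4 lower ones, 3 belong to Foxp1. With each gene represented by its probe set of highest mean log2 signal, 1 of 37 forkhead genes was called higher, against 1.99% of genes, and 1 lower, against 2.59%. By gene the family was thus called about as often as the rest of the array. At an unadjusted p under 0.05, limma gave 14 of 82 forkhead probe sets, against 6405 of all 45037. The 14 were 3 higher and 11 lower, and the 11 include the 3 called Foxp1 probe sets. The 6405 count both directions and were not split, so whether the family leans downward more than all probe sets was not tested. With 1 array left out, 0 forkhead probe sets were called lower without WT 1 and 1 without WT 2, Suz12KO 1 or Suz12KO 2. Without the mean-variance trend limma called 0 of all probe sets in either direction, with 4822 at an unadjusted p under 0.05, 10 of them forkhead.

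Levels on the arrays did not overlap between genotypes for 15 forkhead probe sets that were higher and 20 that were lower in Suz12KO. Among all probe sets 25.7% were higher and 18.7% lower in this sense. The median log2 fold change of the 82 was -0.0021, against 0.07 for all probe sets. When each array was centred on its median the 2 medians were -0.17 and -0.10, so small changes of either sign depend on the scaling. Of the forkhead probe sets, 45 from 22 genes had a mean log2 signal above that of the highest unused spike of any array. This brighter group held all 5 calls, 1 higher (against 2.72% of all probe sets as bright) and 4 lower (against 3.95%). In it 16 probe sets of 8 genes were lower without overlap (35.6%, against 25.8%) and 5 of 5 genes were higher (11.1%, against 27.5%). The 8 genes were Foxh1, Foxj3, Foxk2, Foxm1, Foxn3, Foxo1, Foxp1 and Foxq1, and the 5 were Foxd3, Foxf2, Foxk1, Foxo3 and Foxo4. These shares describe the list and were not tested as a set.

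**Figure D1:**
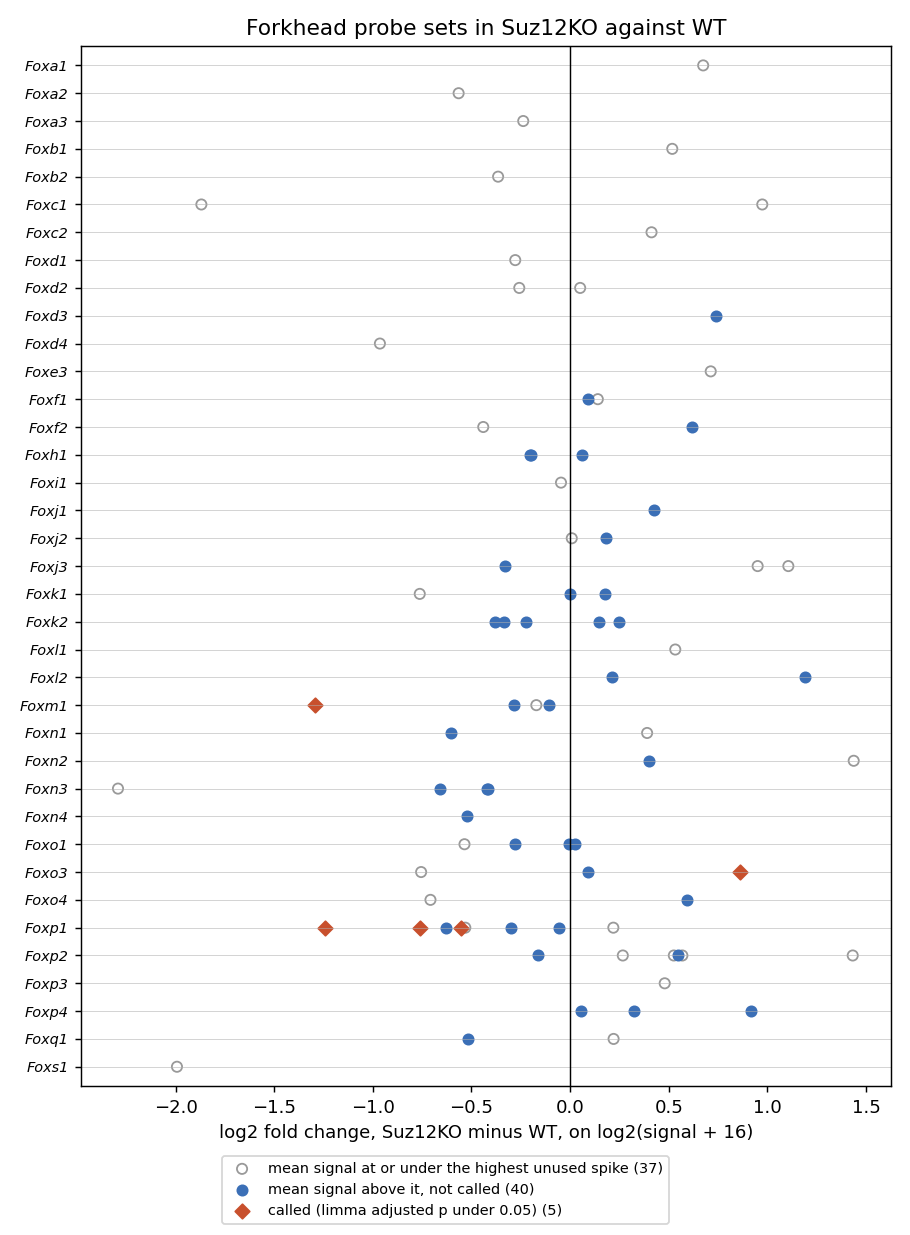
Log2 fold change (Suz12KO minus WT) of each of the 82 forkhead probe sets, with 1 row per gene. Hollow points are probe sets whose mean signal is at or under the highest unused spike, filled circles are brighter, and diamonds are the 5 calls, of which 3 lie in the Foxp1 row.

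Foxp1 encodes a forkhead repressor of the FoxP subfamily that acts in lymphocytes, heart and brain as well as in stem cells. RefSeq (GRCm38.p6) lists 3 start sites for it, all on the minus strand of chromosome 6, and the 250 bases before each are shown because the start sites differ in CpG content. Capitals mark CpG dinucleotides. Start 1 (chr6:99520994-99521243) lies farthest upstream in the gene, followed by start 2 (chr6:99266516-99266765) and start 3 (chr6:99028299-99028548).
Foxp1 start 1: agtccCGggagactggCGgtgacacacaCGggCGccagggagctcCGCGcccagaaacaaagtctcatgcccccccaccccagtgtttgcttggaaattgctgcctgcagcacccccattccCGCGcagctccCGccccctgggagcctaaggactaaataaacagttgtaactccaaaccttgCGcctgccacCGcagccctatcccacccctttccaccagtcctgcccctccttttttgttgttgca
Foxp1 start 2: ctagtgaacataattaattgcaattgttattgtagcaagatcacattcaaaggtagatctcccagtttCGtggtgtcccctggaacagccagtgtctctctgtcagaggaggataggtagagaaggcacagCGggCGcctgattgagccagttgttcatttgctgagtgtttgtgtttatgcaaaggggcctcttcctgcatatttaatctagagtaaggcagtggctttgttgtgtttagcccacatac
Foxp1 start 3: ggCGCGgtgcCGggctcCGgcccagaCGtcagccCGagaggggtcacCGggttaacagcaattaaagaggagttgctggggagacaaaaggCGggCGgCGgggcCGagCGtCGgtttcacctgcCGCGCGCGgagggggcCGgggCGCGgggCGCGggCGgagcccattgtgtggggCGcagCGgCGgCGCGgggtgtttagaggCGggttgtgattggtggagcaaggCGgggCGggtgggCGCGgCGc
The printed stretches hold 11, 3 and 34 CpG dinucleotides. Over the whole windows of 300 bases the counts were 13, 5 and 44, and start 3 was at or above 98.1% of all promoter windows. The sources used here do not say which start or splice form each Foxp1 probe set reports.

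Of 8 Foxp1 probe sets, 3 fell and none rose. Probe set 1435222_at read 1876 and 1574 on the WT arrays and 956 and 1063 on the Suz12KO arrays. Probe set 1421140_a_at read 2357 on WT 1, 2157 on WT 2, 1508 on Suz12KO 1 and 1561 on Suz12KO 2, and 1421142_s_at read 632 and 753 on the WT arrays and 314 and 253 on the Suz12KO arrays. In each of these the Suz12KO arrays lay below both WT arrays. Their log2 fold changes were -0.76 (SE 0.14, limma adjusted p = 0.0236), -0.55 (SE 0.11, limma adjusted p = 0.0298) and -1.24 (SE 0.26, limma adjusted p = 0.0399). Another, 1455242_at, read 1820.0 on WT 1, 1636 on WT 2, 979.6 on Suz12KO 1 and 1257 on Suz12KO 2, also without overlap, and missed the threshold (-0.63, SE 0.15, limma adjusted p = 0.0704). It passed after centring on the array median, with a filter on dim probe sets and without Suz12KO 2 (limma adjusted p = 0.0363, 0.0426 and 0.0488).

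The other Foxp1 probe sets did not separate the genotypes. Probe set 1435221_at, also above the spikes on every array, read 585 and 644 on the WT arrays and 611 and 568 on the Suz12KO arrays, a log2 fold change of -0.058 with a 95% interval of -0.50 to 0.39. Probe set 1421141_a_at read 604 on WT 1, 324 on WT 2, 326 on Suz12KO 1 and 390.0 on Suz12KO 2, where WT 1 stood above the rest. The remaining 2 were above the spikes on at most 1 array. The difference between Foxp1 probe sets was not tested. With 1 array left out, the calls of 1421140_a_at and 1421142_s_at were lost whichever of WT 1, WT 2, Suz12KO 1 or Suz12KO 2 was removed (limma adjusted p = 0.0663 to 0.316), and that of 1435222_at without WT 1, Suz12KO 1 or Suz12KO 2 (limma adjusted p = 0.0611 to 0.161). Quantile normalization also ended the call of 1421140_a_at (limma adjusted p = 0.0516).

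**Figure D2:**
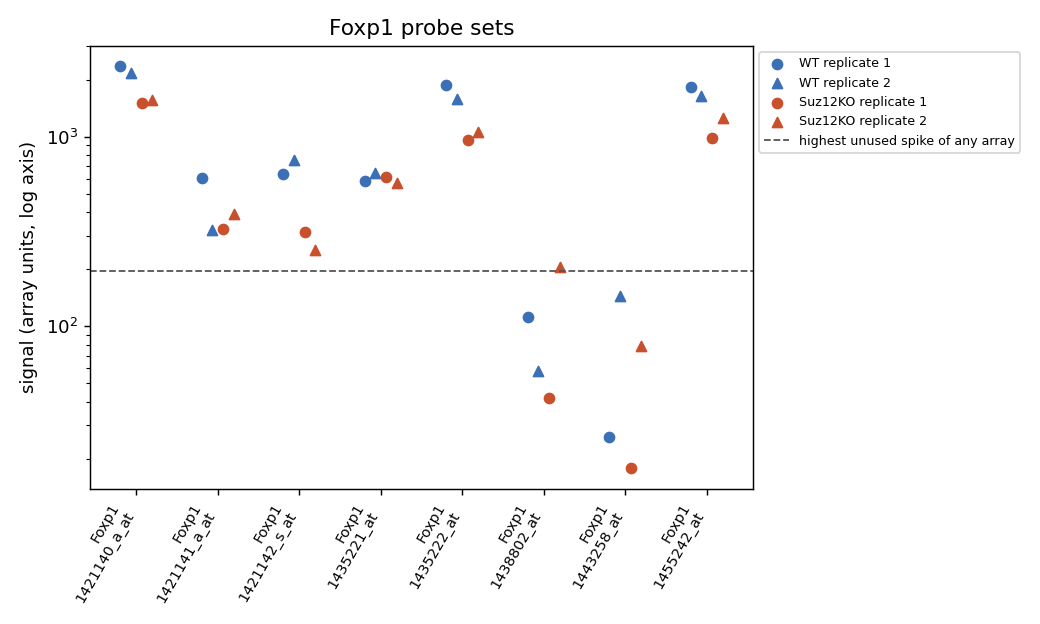
Signal of the 8 Foxp1 probe sets on each array (log axis, array units), with the highest unused spike of any array as a dashed line. Both Suz12KO arrays lie below both WT arrays for 1421140_a_at, 1421142_s_at, 1435222_at and 1455242_at, while 1435221_at reads between 568 and 644 on all 4.

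The other FoxP genes showed no call. Foxp4, a paralog active in lung, gut and brain development, read 846 and 766 on the WT arrays and 814 and 863 on the Suz12KO arrays on 1429719_at and 392 on WT 1, 641 on WT 2, 721 on Suz12KO 1 and 553 on Suz12KO 2 on 1431437_at. The other Foxp4 probe set, 1431088_at, read 284 and 92.2 on the WT arrays and 395 and 267 on the Suz12KO arrays. All of these overlapped between genotypes. Foxp2, known for its role in circuits for vocal learning, was above the spikes on both arrays of a genotype for 2 of 6 probe sets. Of these, 1438231_at read 265 on WT 1, 301 on WT 2, 183 on Suz12KO 1 and 342 on Suz12KO 2 and 1458191_at read 115 and 220.2 on the WT arrays and 322 and 179 on the Suz12KO arrays, and both overlapped. The Foxp2 probe sets 1422014_at, 1438232_at and 1440108_at were higher without overlap but at or under the spikes on every array, and none was called. The last, 1441365_at, was as dim and overlapped. Foxp3, which defines regulatory T cells, was at or under the spikes on every array and also higher without overlap. Over all probe sets 25.7% were higher in this sense.

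FoxO proteins switch on genes for stress resistance and cell cycle arrest when growth factor signalling is low, and Foxo1 is known to sustain Pou5f1 and Sox2 in stem cells. Foxo3, which enters the nucleus under stress, has 1 start site in the RefSeq table (GRCm38.p6, minus strand, chr10:42276696-42276945), shown with CpG dinucleotides in capitals because Foxo3 held the only forkhead rise that was called.
Foxo3: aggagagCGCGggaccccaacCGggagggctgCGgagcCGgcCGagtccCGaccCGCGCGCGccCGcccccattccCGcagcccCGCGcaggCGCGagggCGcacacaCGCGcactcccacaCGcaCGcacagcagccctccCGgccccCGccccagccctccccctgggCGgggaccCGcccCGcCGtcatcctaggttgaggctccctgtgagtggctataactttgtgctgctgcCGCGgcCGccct
This stretch holds 31 CpG dinucleotides, and its window of 300 bases holds 35, at or above 93.8% of all promoter windows.

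Foxo3 rose on 1 of its probe sets. Probe set 1434831_a_at read 1394 on WT 1, 1609.9 on WT 2, 2586 on Suz12KO 1 and 2889 on Suz12KO 2, with both Suz12KO arrays above both WT arrays. The means were 1502 ± 152 for WT and 2737 ± 214 for Suz12KO (SD, n = 2 arrays per genotype), and the difference was 0.86 on the log2 scale (SE 0.12, limma adjusted p = 0.00565). The call was kept with any 1 of the 4 arrays left out (limma adjusted p = 0.00644 to 0.0493). A second bright Foxo3 probe set, 1434832_at, read 1355 and 1819 on the WT arrays and 1646 and 1705 on the Suz12KO arrays, where the Suz12KO arrays fell inside the WT range. Its log2 fold change was 0.093 (95% interval -0.25 to 0.43, and -0.075 after centring on the array median). This interval ends below the interval of 1434831_a_at (0.60 to 1.12), and the difference itself was not tested. The third Foxo3 probe set was above the spikes on WT 1 alone. A probe set that lists Foxo3 together with Gm38485 lies outside the rule and is given in the closing observations.

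Foxo4, an X-linked member, read 469.9 on WT 1, 712 on WT 2, 930.1 on Suz12KO 1 and 836 on Suz12KO 2 on 1456753_at, without overlap, and was not called (0.59, SE 0.22, limma adjusted p = 0.266). The log2 fold change of Foxo4 1456753_at was 0.30 without WT 1 and 0.89 without WT 2. Its second probe set was above the spikes on WT 1 alone. Foxo1 read 1021 and 1115 on the WT arrays and 904 and 851 on the Suz12KO arrays on 1416982_at, lower without overlap, with a log2 fold change of -0.28 (SE 0.15, limma adjusted p = 0.448). The other bright Foxo1 probe sets overlapped: 1416981_at read 899 on WT 1, 917 on WT 2, 834 on Suz12KO 1 and 1024 on Suz12KO 2, and 1416983_s_at read 692 and 701 on the WT arrays and 799.6 and 601 on the Suz12KO arrays. Their log2 fold changes were 0.025 (95% interval -0.34 to 0.39; -0.14 after centring on the array median) and -0.0065 (95% interval -0.46 to 0.45). Of 4 Foxo1 probe sets 0 were called by limma, with 0 at an unadjusted p under 0.05.

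**Figure D3:**
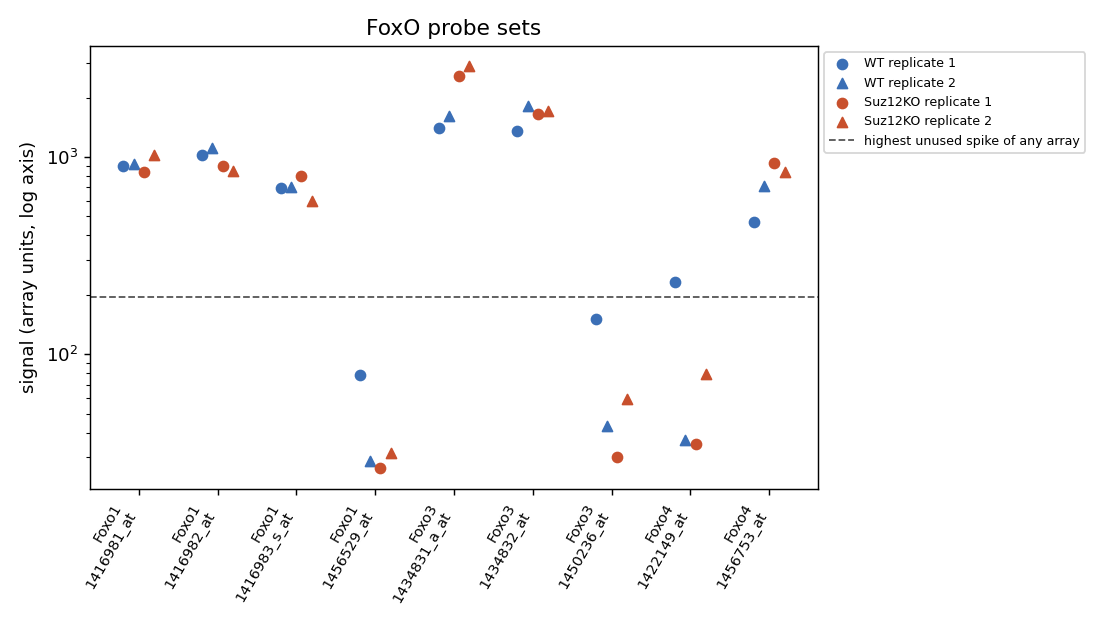
Signal of the Foxo1, Foxo3 and Foxo4 probe sets on each array (log axis, array units), with the highest unused spike as a dashed line. Of the 2 bright Foxo3 probe sets, 1434831_a_at reads 2586 and 2889 on the Suz12KO arrays, and 1434832_at reads between 1355 and 1819 on all 4 arrays.

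Like the marker lists above, the lists in this and later paragraphs were scored by the brightest probe set of each gene. Over all genes scored this way, 1.99% were called higher and 2.59% lower, and the median was 0.06. In a separate limma fit of 1 probe set per gene, 3286 of 18193 had an unadjusted p under 0.05. The list counts come from the fit over all 45037 probe sets, so this share is only an approximate background for them. Of 24 measured upstream regulators of FoxO proteins, 1 rose, 3 fell and 20 did not pass (median log2 fold change -0.09). In limma 12 of the 24 had an unadjusted p under 0.05. The insulin receptor substrates, which relay insulin signals to Akt, fell: Irs1 read 1354 on WT 1, 1358 on WT 2, 531 on Suz12KO 1 and 291 on Suz12KO 2 (-1.74, SE 0.26, limma adjusted p = 0.00996), and Irs2 read 919 and 859 on the WT arrays and 413 and 236 on the Suz12KO arrays (-1.46, SE 0.28, limma adjusted p = 0.0298). Ywhab, a 14-3-3 protein that binds phosphorylated FoxO proteins, fell by 0.37 on the log2 scale, and Sirt1, which deacetylates them, rose by 0.92. Irs2 lost its call without WT 1, WT 2 or Suz12KO 2, Sirt1 without WT 1, Suz12KO 1 or Suz12KO 2 and after centring, and Ywhab without any 1 of the 4 arrays (limma adjusted p = 0.0617 to 0.192).

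Of 26 known FoxO target genes, 3 rose, 4 fell and 19 did not pass (median 0.14). In limma 8 of the 26 had an unadjusted p under 0.05. The mitochondrial superoxide dismutase Sod2 rose from 2089 ± 287 to 3842 ± 74.9 (mean ± SD, 2 arrays per genotype), by 0.88 on the log2 scale (SE 0.11, limma adjusted p = 0.00373). Klf2, a naive pluripotency factor, rose by 1.76 and Eif4ebp1, a translation inhibitor, by 0.41. The stress response gene Gadd45b fell by 0.97 and the transcriptional coregulator Cited2 by 0.92, beside Irs2, which stands on both lists. The fourth to fall was the cell cycle inhibitor Cdkn1a. Eif4ebp1 lost its call without WT 1, Suz12KO 1 or Suz12KO 2 and after centring, and Gadd45b without WT 1 or Suz12KO 2 (limma adjusted p = 0.0602 to 0.240).

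Foxm1 drives genes of the G2 and M phases and is transcribed in dividing cells. Its 4 probe sets gave different values. Probe set 1448834_at read 914 on WT 1, 871 on WT 2, 467 on Suz12KO 1 and 269 on Suz12KO 2, with both Suz12KO arrays far below WT and far from each other. It fell by 1.29 on the log2 scale (SE 0.27, limma adjusted p = 0.0438). Probe set 1448833_at read 1566 and 1572 on the WT arrays and 1451 and 1139 on the Suz12KO arrays, also lower without overlap, and was not called (-0.28, SE 0.14, limma adjusted p = 0.426). The log2 fold change of Foxm1 1448833_at was -0.46 without Suz12KO 1 and -0.11 without Suz12KO 2. Probe set 1417748_x_at read 846 on WT 1, 840.0 on WT 2, 912 on Suz12KO 1 and 668 on Suz12KO 2, where the WT arrays lay between the Suz12KO arrays. The fourth was at or under the spikes on every array. The call of 1448834_at was lost without WT 1, WT 2 or Suz12KO 2 (limma adjusted p = 0.0905 to 0.187; the log2 fold change was -0.91 without Suz12KO 2 and -1.67 without Suz12KO 1). It was also lost with a pseudocount of 1 or 64, quantile normalization or robust estimation (limma adjusted p = 0.0508 to 0.0539).

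Among 19 measured Foxm1 target genes, 2 fell, 1 rose and the other 16 missed the threshold (median 0.02). An unadjusted limma p under 0.05 was found for 10 of the 19. Of these, Ccnb2, Aurka, Cenpa, Cenpf, Birc5, Bub1b and Cdc20 were higher in Suz12KO, and Ccnd1, Cks1b and Myc were lower. Ccnb2, a mitotic cyclin, rose from 2748 ± 143 to 4171 ± 152 (mean ± SD, 2 arrays per genotype; 0.60, SE 0.09, limma adjusted p = 0.00788). The G1 cyclin Ccnd1 fell by 0.46 and the growth regulator Myc by 0.88, and neither is specific to mitosis. Ccnb2 lost its call without Suz12KO 2 or after centring, and Ccnd1 and Myc without WT 1, WT 2 or Suz12KO 1 (limma adjusted p = 0.0506 to 0.110).

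Foxd3 is a repressor and pioneer factor needed to maintain embryonic stem cells and, later, neural crest. Its promoter is shown for comparison with the called members (RefSeq, GRCm38.p6, plus strand, chr4:99656049-99656298), with CpG dinucleotides in capitals.
Foxd3: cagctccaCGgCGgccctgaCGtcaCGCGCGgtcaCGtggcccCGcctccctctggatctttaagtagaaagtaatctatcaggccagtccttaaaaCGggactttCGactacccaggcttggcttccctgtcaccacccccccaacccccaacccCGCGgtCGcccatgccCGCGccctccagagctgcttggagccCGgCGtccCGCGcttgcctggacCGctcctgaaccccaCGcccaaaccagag
It holds 21 CpG dinucleotides in this stretch and 25 in its window of 300 bases. The single Foxd3 probe set read 401 and 381 on the WT arrays and 683 and 644 on the Suz12KO arrays. Both Suz12KO arrays lay above both WT arrays, with a log2 fold change of 0.74 (95% interval 0.25 to 1.23). It did not pass over all probe sets (limma adjusted p = 0.144).

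Foxh1, the DNA-binding partner of Smad2 and Smad3 in the Nodal response, was above the spikes on all 4 arrays for each of its 3 probe sets. Probe set 1422213_s_at read 1909 on WT 1, 1921 on WT 2, 1900.0 on Suz12KO 1 and 1449 on Suz12KO 2, and 1422212_at read 1673 and 1451 on the WT arrays and 1434 and 1281 on the Suz12KO arrays. Both were lower without overlap, though Suz12KO 1 lay close under WT: -0.21 (95% interval -0.52 to 0.11) and -0.20 (95% interval -0.49 to 0.097). The log2 fold change of Foxh1 1422213_s_at was -0.40 without Suz12KO 1 and -0.011 without Suz12KO 2, and that of Foxh1 1422212_at was -0.097 without WT 1 and -0.30 without WT 2. Probe set 1437779_at read 624 on WT 1, 962 on WT 2, 769 on Suz12KO 1 and 850.1 on Suz12KO 2 and overlapped. Of 15 measured Nodal pathway genes, Tdgf1, the Nodal co-receptor, rose by 0.39 (SE 0.08, limma adjusted p = 0.035), and the other 14 missed the threshold (median 0.23). In limma 4 of the 15 had an unadjusted p under 0.05. Tdgf1 is also 1 of the 9 stem cell genes that rose. Tdgf1 lost its call with any 1 of the 4 arrays left out and after centring on the array median (limma adjusted p = 0.0540 to 0.376).

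Foxn3 is a repressor of cell cycle and metabolic genes. Of its 4 probe sets 0 were called by limma, with 2 at an unadjusted p under 0.05 (against 6405 of all 45037). Probe set 1434002_at read 767 and 988 on the WT arrays and 525 and 566 on the Suz12KO arrays, without overlap (-0.66, SE 0.20, limma adjusted p = 0.15). Probe set 1453094_at read 367 on WT 1, 229.6 on WT 2, 42.7 on Suz12KO 1 and 50.8 on Suz12KO 2, and both of its Suz12KO values lay within the range of the spikes. Set against the highest spike of each Suz12KO array it was at least 1.53-fold lower (limma adjusted p = 0.143). Probe set 1438255_at read 522 and 740.4 on the WT arrays and 503 and 424 on the Suz12KO arrays, and 1436925_at read 524 on WT 1, 1031 on WT 2, 549 on Suz12KO 1 and 539 on Suz12KO 2, where WT 1 lay under the Suz12KO arrays. The log2 fold changes of these last 2 were both -0.42. Without WT 2 they were -0.17 (Foxn3 1438255_at) and 0.054 (Foxn3 1436925_at).

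**Figure D4:**
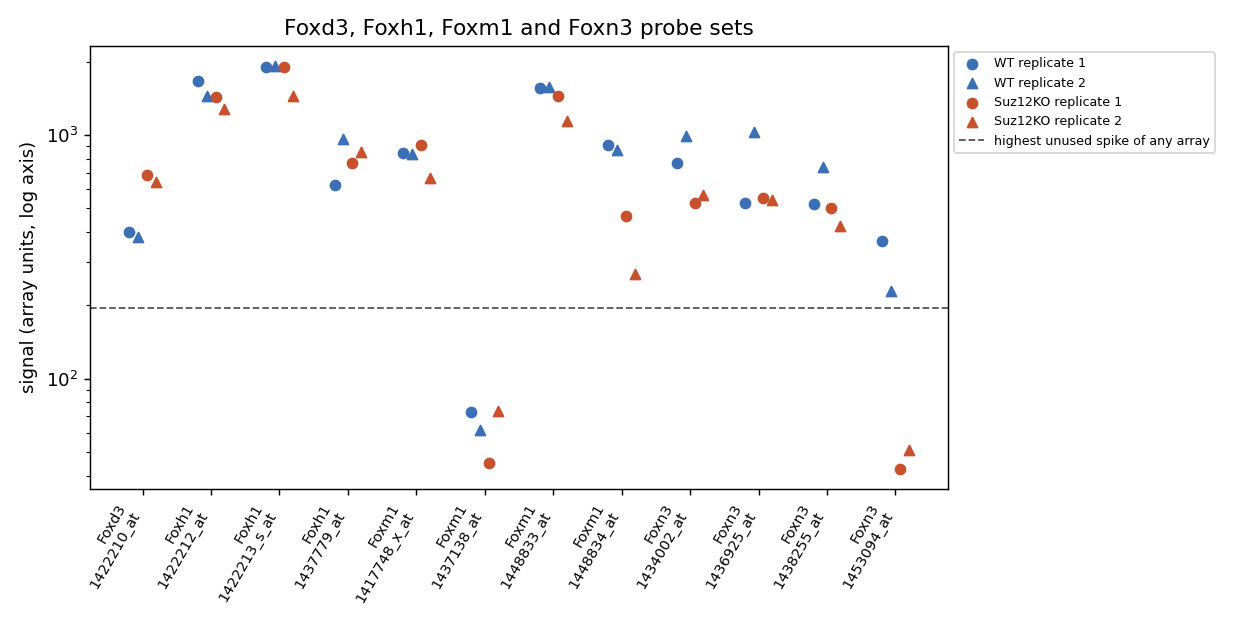
Signal of the Foxd3, Foxh1, Foxm1 and Foxn3 probe sets on each array (log axis, array units), with the highest unused spike as a dashed line. Foxd3 is higher on both Suz12KO arrays, and the Suz12KO arrays of Foxm1 1448834_at (467 and 269) lie under its WT arrays (914 and 871).

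Among the other FoxN genes, Foxn2, a close relative of Foxn3, read 389 and 463 on the WT arrays and 441 and 726 on the Suz12KO arrays. Foxn1, the thymic epithelial factor, read 237 on WT 1, 274 on WT 2, 86.5 on Suz12KO 1 and 294 on Suz12KO 2 on 1450508_at. Foxn4, which acts in retina and spinal cord, read 274 and 264 on the WT arrays and 299.6 and 109 on the Suz12KO arrays. All 3 overlapped between genotypes, and for Foxn1 and Foxn4 a single Suz12KO array was within the range of the spikes.

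FoxK proteins repress autophagy genes and bind the Sin3a corepressor and the Bap1 deubiquitinase. Of 5 Foxk2 probe sets, 3 were lower without overlap, as were 25.8% of all probe sets as bright. Probe set 1428354_at read 1136 on WT 1, 1138 on WT 2, 898 on Suz12KO 1 and 844 on Suz12KO 2. Probe set 1428353_at read 1117 and 1089 on the WT arrays and 837 and 907 on the Suz12KO arrays, and 1452753_at read 1045 on WT 1, 942 on WT 2, 829.6 on Suz12KO 1 and 866 on Suz12KO 2. The log2 fold changes were -0.38, -0.34 and -0.22 (limma adjusted p = 0.254, 0.333 and 0.57), so none passed. The other Foxk2 probe sets 1442933_at (320.1 and 373 on the WT arrays and 329 and 448 on the Suz12KO arrays) and 1440689_at (268 on WT 1, 185 on WT 2, 303 on Suz12KO 1 and 237 on Suz12KO 2) overlapped. Foxk1 read 304 and 281 on the WT arrays and 329.8 and 336 on the Suz12KO arrays on 1451752_at, higher without overlap but not called (limma adjusted p = 0.856). Its other bright probe set, 1434655_at, read 237 on WT 1, 517 on WT 2, 289 on Suz12KO 1 and 428 on Suz12KO 2 and overlapped. Of 13 measured forkhead cofactors, the Groucho-type corepressor Tle3 rose by 0.59 (SE 0.12, limma adjusted p = 0.0359) and 12 did not pass (median -0.05). In limma 5 of the 13 had an unadjusted p under 0.05. Tle3 lost its call with any 1 of the 4 arrays left out, after centring and with robust estimation (limma adjusted p = 0.0542 to 0.154).

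FoxJ genes were not called. Foxj3, a factor of muscle and germ cells, read 897 and 952 on the WT arrays and 681 and 787 on the Suz12KO arrays on 1435362_at, lower without overlap (limma adjusted p = 0.423), and 47.1 on WT 1, 224 on WT 2, 268 on Suz12KO 1 and 232 on Suz12KO 2 on 1438220_at, higher without overlap, where WT 1 stood far below the rest (limma adjusted p = 0.553). Foxj2 read 402 and 255 on the WT arrays and 367 and 365 on the Suz12KO arrays, and Foxj1, the master factor of motile cilia, read 151 on WT 1, 231 on WT 2, 181 on Suz12KO 1 and 362 on Suz12KO 2. Both overlapped.

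Of the 37 genes, 9 were within the range of the spikes on every array. The endoderm pioneers Foxa1 and Foxa2, the mesenchymal factors Foxc2, Foxd1, Foxd2 and Foxl1, the lens factor Foxe3, the inner ear and kidney factor Foxi1, and Foxp3 were these 9. Over the family, 23 of 82 probe sets (28.0%) were in that state, against 32.8% of all probe sets. Foxa3, Foxb1, Foxb2, Foxc1 and Foxs1 were above the spikes on 1 array each. Of these 14 genes limma called 0 in either direction. Foxc1 and Foxd2 had 2 probe sets each and the others 1. The probe sets of the 14 genes held 2 at an unadjusted limma p under 0.05, 1 of Foxc1 and 1 of Foxs1, against 6405 of all 45037. A fold change below the spikes cannot be measured here.

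Foxc1 and Foxs1 act in mesenchyme and perivascular cells. Foxs1 read 166 and 144 on the WT arrays and 36.5 and 19.0 on the Suz12KO arrays, and Foxc1 1419486_at read 119 on WT 1, 216 on WT 2, 29.0 on Suz12KO 1 and 36.0 on Suz12KO 2. Both were lower without overlap but under or near the spikes, and neither was called (limma adjusted p = 0.259 and 0.306). The other Foxc1 probe set, at or under the spikes on every array, read 30.6 and 70.3 on the WT arrays and 87.7 and 134 on the Suz12KO arrays, higher without overlap. Of the other forkhead genes described here as mesenchymal, Foxf2 1418220_at, Foxc2 and Foxl1 were higher without overlap and not called. Among all probe sets 25.7% were higher and 18.7% lower without overlap. Foxd1 and Foxd2 overlapped. Foxc2, Foxl1, Foxd1 and Foxd2 lay within the spikes on every array, so whether they changed is not known. Of the 13 fibroblast markers given above 5 fell and 8 did not pass, and their part in the Foxc1 and Foxs1 values was not tested.

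Forkhead genes lie next to each other at several places in the RefSeq annotation. Foxq1, Foxf2 and Foxc1 form a run on chromosome 13 with no other protein-coding gene between them, Foxc2 and Foxl1 are neighbours on chromosome 8 close to Foxf1, and Foxd2 lies beside Foxe3 on chromosome 4. Foxq1, an epithelial factor, read 373 on WT 1, 513 on WT 2, 333 on Suz12KO 1 and 273 on Suz12KO 2, lower without overlap and not called (limma adjusted p = 0.513). Its neighbour Foxf2, a factor of gut mesenchyme, read 221 and 123 on the WT arrays and 239.6 and 287 on the Suz12KO arrays, with WT 2 within the range of the spikes. Each gene of this run had 2 probe sets. Of these limma called 0, with 1, of Foxc1, at an unadjusted p under 0.05 (against 6405 of all 45037). The log2 fold change of Foxq1 1422735_at was -0.52, or -0.29 without WT 2, and that of Foxf2 1418220_at was 0.62, or 0.23 without WT 2. The second Foxq1 probe set, 1438558_x_at, read 177 on WT 1, 139.8 on WT 2, 230.2 on Suz12KO 1 and 149.5 on Suz12KO 2, near the spikes, and the second of Foxf2 was within them on every array. In the chromosome 8 run Foxc2 and Foxl1 were within the spikes on all arrays, and both Foxf1 probe sets overlapped between genotypes. Of them, 1423013_at read 92.8 and 477 on the WT arrays and 549.7 and 91.6 on the Suz12KO arrays, far apart within each genotype, and 1434939_at read 305 on WT 1, 100.1 on WT 2, 179 on Suz12KO 1 and 216 on Suz12KO 2, far apart within WT.

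Foxl2, the ovarian granulosa cell factor, read 710.4 and 729.9 on the WT arrays and 1076 and 650.3 on the Suz12KO arrays on 1456410_at, where Suz12KO 1 stood above the rest, and 330.1 on WT 1, 59.0 on WT 2, 417 on Suz12KO 1 and 297 on Suz12KO 2 on 1444002_at, where WT 2 stood below. Foxd4, which acts in early neural ectoderm, was above the spikes on 1 array of each genotype. Among 11 measured genes regulated by Foxa proteins in endoderm and its derivatives, 0 were called by limma and 0 had an unadjusted p under 0.05 (median -0.15). Shh read 125 and 747 on the WT arrays and 471 and 379 on the Suz12KO arrays, and Hnf4a read 223 on WT 1, 284 on WT 2, 246 on Suz12KO 1 and 170.4 on Suz12KO 2, and the arrays overlapped for both.

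Markers of other lineages in which forkhead genes act were checked in the same way. Of 13 extraembryonic endoderm markers, the laminin chain Lama1 rose by 2.31 (SE 0.22, limma adjusted p = 0.000832) and 12 did not pass (median 0.13). An unadjusted limma p under 0.05 was found for 3 of them. Of 9 neural markers, Otx2, which also marks epiblast, rose by 1.81, Sox11 fell by 2.27, Nes fell by 1.41, and 6 did not pass (median -0.23). An unadjusted limma p under 0.05 was found for 3 of the 9. The summed neural signal was 5787 to 6167 on the WT arrays and 3266 to 3804 on the Suz12KO arrays. Most of the WT sum came from Sox11 and Nes, the genes that fell. Sox11 read 2420 and 2319 on the WT arrays and 457 and 502 on the Suz12KO arrays. Nes read 2150 and 1674 on the WT arrays and 702 and 709 on the Suz12KO arrays. Otx2 lost its call without Suz12KO 2 (limma adjusted p = 0.0629). Of 9 mesoderm markers, 0 were called by limma and 1 had an unadjusted p under 0.05 (median 0.38). Hand1 read 503 and 387 on the WT arrays and 1108 and 605 on the Suz12KO arrays, without overlap and not called (limma adjusted p = 0.208), and Kdr read 471 on WT 1, 386 on WT 2, 461 on Suz12KO 1 and 467 on Suz12KO 2. Of 11 PRC2 subunits and cofactors, Jarid2 and Mtf2 rose, Suz12 fell and 8 did not pass (median 0.36). An unadjusted limma p under 0.05 was found for 5 of the 11. The part of these lists in the forkhead results was not tested.

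The promoters of forkhead genes were also described by sequence. RefSeq windows of 300 bases (250 before to 50 after the start) were found for 24 of the 37 genes, in 29 windows. Their median was 22 CpG dinucleotides and 63.0% G or C, against 7 and 52.7% over 32851 windows of all genes. Foxo3 held 35, and the starts of Foxp1 lay on both sides of the family median (44, 13 and 5). The other counts above 32 were those of Foxk2 (59), Foxj3 (42), Foxj2 (37) and Foxp4 (33). Genes with no window included Foxm1. Foxn3, Foxi1 and 1 start of Foxp3 had 6, and only start 2 of Foxp1 had fewer, with 5. Dim genes such as Foxa1 (26) and Foxd2 (26), and Foxc1 (32), which was above the spikes on 1 array, had counts above the family median as well. High counts thus occurred among genes read above the spikes and among genes below them. The forkhead binding motif TGTTTAC, searched on both strands, occurred in 1 of the 29 windows (3.45%, in Foxa1) and in 3.65% of all windows.

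**Figure D5:**
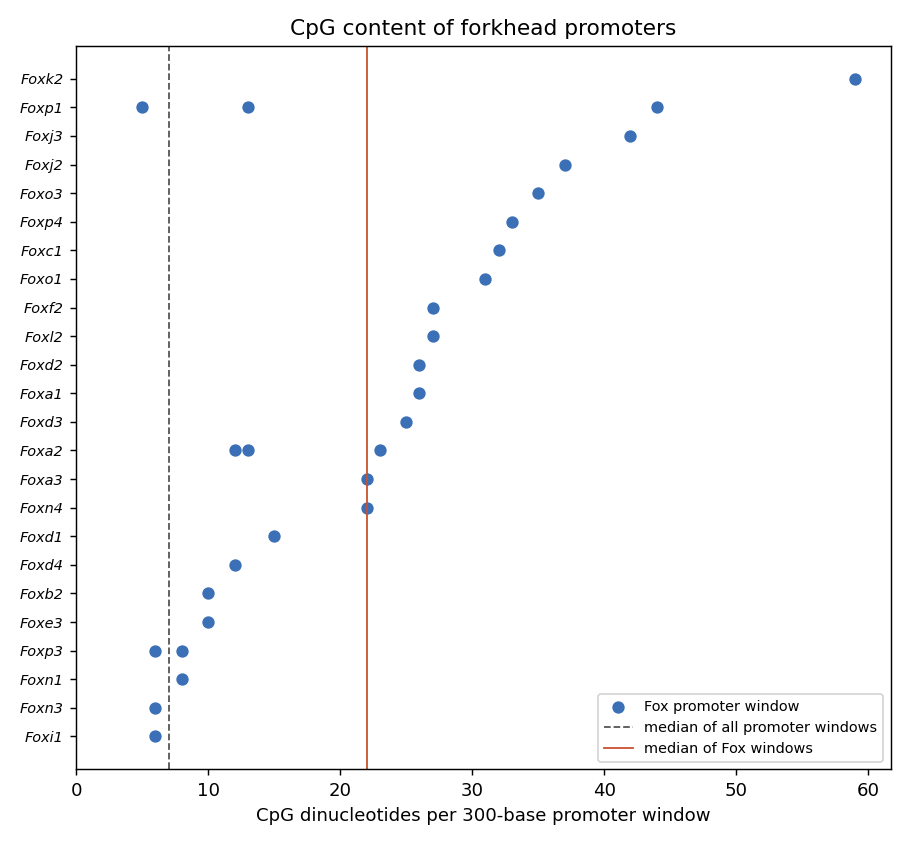
CpG dinucleotides in each 300-base promoter window of the forkhead genes that have one, with 1 row per gene. The forkhead median of 22 (solid line) lies above the median of 7 over all windows (dashed line), and Foxp1 spans 5 to 44 over its 3 start sites.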

How the data were processed

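Signal was measured on 4 Affymetrix arrays, 2 WT and 2 Suz12KO, grouped by sample title. The deposited values are probe set intensity on a linear scale, and the mean without the lowest and highest 2% was 500.003 on each array, so the authors had scaled them to 1 trimmed mean; the sources used here do not give the software. A change shared by most genes is thereby hidden. No count depth exists for arrays, and their number limits the precision. The platform annotation supplied symbols (34945 probe sets with 1 symbol, 932 with several, 9160 with none, beside 64 controls).

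Genotypes were compared in limma 3.58.1 (R 4.3.3) on log2(signal + 16) for all 45037 probe sets other than controls, with no signal filter (eBayes, trend on mean signal, prior degrees of freedom 6.47; p-values are two-sided and adjusted by Benjamini-Hochberg over all of them). The procedure was tested on simulated data, drawn independently for each array with the spread that limma fitted. That test cannot show whether the 2 real arrays of a genotype are independent. Values are printed for each forkhead probe set called, or above the highest unused spike on both arrays of a genotype, which held for 46, with Foxc1, Foxf1, Foxs1 and Foxq1 1438558_x_at added after their values were seen; list genes are the 3 largest rises and falls among calls, or the 2 brightest members. Cdkn1a, Col1a2, Col3a1 and the list members named as at or under the spikes were also added. Members and lists were chosen with earlier results of these data known. A fold against a group within the spikes is given as at least N-fold, from mean log2 signal against the highest spike per array. Promoters came from RefSeq (GRCm38.p6). Tables and plots used Python 3.11.15 and matplotlib 3.10.9. Alternatives were another pseudocount, normalization, centring, a filter on dim probe sets, 1 probe set per gene, no suffixed probe sets, no trend, robust estimation, a replicate block and leaving out each array.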

Additional observations from a re-analysis of the deposited data

How the results depend on the processing

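The 4 arrays limit every call, and signal under the unused spikes gives no fold change. Over all probe sets 565 were higher and 807 lower; for the forkhead probe sets these counts were 1 and 4. The number of forkhead probe sets called lower was 2 under quantile normalization and 1 with 1 probe set per gene (37 forkhead probe sets tested). It was 2 among the 71 whose name carries no _s, _x or _a mark, where 0 were higher. Of these 71, 11 had an unadjusted limma p under 0.05, against 4521 of all 36082 such probe sets. Without the mean-variance trend limma called 0 in either direction, forkhead or other (smallest adjusted p = 0.284, with 10 forkhead and 4822 of all probe sets at an unadjusted p under 0.05). Over all probe sets, centring on the array median gave 252 higher and 1226 lower, which is 17.1% higher in place of 41.2%, leaving out marked probe sets 349 and 474, and replicate number as a replicate block 977 and 1241. The block gave 5 forkhead probe sets lower, with 1455242_at of Foxp1 added (limma adjusted p = 0.0178). Deviations of arrays with the same number correlated at 0.00381, so the numbers were not taken to pair the arrays, and the block changed no other forkhead call; among the genes named from the lists it added Hand1 (limma adjusted p = 0.0397). Leaving out 1 array gave 203 to 403 higher and 405 to 573 lower over all probe sets, and 0 to 1 forkhead probe sets lower, with 1 higher each time. With a pseudocount of 1 or 64 or robust estimation 3 forkhead probe sets were lower, and with the 30th percentile filter or centring 5.

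Signs changed for probe sets that were not called. After centring the log2 fold change was -0.11 for Foxh1 1437779_at, -0.17 for Foxk1 1434655_at (-0.0057 with a pseudocount of 64, -0.069 under quantile normalization), -0.021 for Foxk2 1442933_at, -0.14 for Foxo1 1416981_at, -0.075 for Foxo3 1434832_at, -0.11 for Foxp4 1429719_at and -0.049 for Kdr; quantile normalization gave 0.017 for Foxo1 1416983_s_at. With 1 array left out the values ran from -0.25 to 0.37 for Foxh1 1437779_at, -0.041 to 0.90 for Foxj1, -0.13 to 0.50 for Foxj2, -0.53 to 0.54 for Foxk1 1434655_at, -0.0025 to 0.50 for Foxk2 1440689_at, -0.067 to 0.36 for Foxk2 1442933_at, -0.14 to 0.57 for Foxl2 1456410_at, -0.33 to 0.11 for Foxm1 1417748_x_at and -1.40 to 0.19 for Foxn1. They ran from -0.90 to 0.054 for Foxn3 1436925_at, -1.19 to 0.15 for Foxn4, -0.12 to 0.17 for Foxo1 1416981_at, -0.21 to 0.19 for Foxo1 1416983_s_at, -0.12 to 0.30 for Foxo3 1434832_at, -0.73 to 0.13 for Foxp1 1421141_a_at and -0.13 to 0.0094 for Foxp1 1435221_at. The ranges were -0.58 to 0.26 for Foxp2 1438231_at, -0.013 to 0.13 for Foxp4 1429719_at, -0.021 to 0.67 for Foxp4 1431437_at, -0.020 to 0.26 for Kdr and -0.80 to 1.63 for Shh. The cause of these changes was not tested.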

Other observations

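Probe sets outside the naming rule bear forkhead symbols too. Foxl2os, a transcript from the strand opposite Foxl2, read 211 on WT 1, 319.7 on WT 2, 145 on Suz12KO 1 and 27.7 on Suz12KO 2, lower without overlap and not called (-1.72, limma adjusted p = 0.371). The probe set that lists Foxo3 with Gm38485 read 254 on WT 1, 24.3 on WT 2, 273 on Suz12KO 1 and 266 on Suz12KO 2 and was not called (limma adjusted p = 0.515). A probe set that lists Foxm1 with Tex52 and Pebp1 read 1241 on WT 1, 1089 on WT 2, 829 on Suz12KO 1 and 1049 on Suz12KO 2 (limma adjusted p = 0.448). Which of the listed genes these signals come from was not tested.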
